A study of Homo sapiens with 8 samples.

Results

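DNA replication and S-phase genes were followed in KYSE850, an established cell line from a human esophageal squamous cell carcinoma, after silencing of KHSRP. KHSRP encodes an RNA-binding protein that acts in mRNA decay and in the maturation of some microRNAs. The members were 49 genes listed by their function in replication: 9 of origin licensing, 11 of the replicative helicase, 9 of the sliding clamp, its loader and the single-strand binding protein RPA, 8 polymerase and primase genes, 3 of Okazaki fragment processing, 4 of nucleotide supply, and 5 others (E2F1, E2F2, CLSPN, TIMELESS and UHRF1). Every probe whose RefSeq accession mapped to a member was taken, which gave 59 probes for 48 genes out of 20249 genes with a named probe. POLA2 had no such probe. Of the 59 probes, 58 were bright enough to be tested, and they covered all 48 genes. The untested one was a second RPA1 probe, well above background on 3 arrays of each group.

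All 8 samples were KYSE850 cells transfected with siRNA, short duplexes that lower the mRNA they match. The 4 control samples received control siRNA and the other 4 received siRNA against KHSRP, so that transfection itself was common to both groups. Several KHSRP siRNAs were in use in the study, and the labels do not say which of them was on which array. Each sample was hybridised to a one-colour Agilent expression array. Nothing in the labels says that the 4 samples of a group came from separate cultures, so the p-values measure the spread between these samples, which may be technical. The cells were not sorted by cycle phase, and fewer cells in S phase cannot be told apart here from less of an mRNA in each cell.

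Replication starts with licensing, when the origin recognition complex (ORC), CDC6 and CDT1 load the MCM helicase onto DNA, while geminin (GMNN) binds CDT1 and prevents a repeat within the same cycle. MCM then joins CDC45 and the GINS complex to form the active helicase, polymerases copy both strands with the clamp PCNA, and ribonucleotide reductase supplies the deoxynucleotides. Many of these genes are transcribed at the boundary of G1 and S phase by E2F factors, which the retinoblastoma proteins hold back, and proliferating carcinoma cells usually express them strongly.

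A level is given below as log2 of a probe's processed signal relative to the 75th percentile of the array, and a change as the difference of the group means of that level, KHSRP siRNA minus control siRNA. Between 45.1% and 49.4% of probes were well above background on an array, and no spot was saturated. KHSRP itself stood at 6.03, 5.81, 6.39 and 6.08 on control replicates 1 to 4 and at 2.52, 2.58, 2.88 and 2.85 on KHSRP siRNA replicates 1 to 4. The groups lay far apart, and the silenced cells kept 9.66% of the control level (log2 change -3.37, SE 0.16, limma adjusted p = 5.95e-05, exact permutation test, two-sided, p = 0.0286, the smallest that 4 arrays against 4 allow). A second, dimmer KHSRP probe was well above background on the 4 control arrays alone. As for the labelled cell type, all 10 squamous epithelial markers (among them KRT5, KRT14 and TP63) were tested, against 1 of 6 fibroblast markers, 2 of 5 leukocyte markers and 0 of 4 endothelial markers. COL1A1, CD14 and CD68 were the markers of other cell types that passed the brightness filter.

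Most replication genes were lower after KHSRP silencing, by a modest amount. Of the 48 tested members, 42 (87.5%) had a change below 0, against 49.1% of the 12125 tested genes. The median change was -0.25 for the members and 0.01 for all tested genes. Only 4 members passed the test at an adjusted p under 0.05, all of them lower: ORC2, GMNN, RRM1 and RRM2. That is 8.33% of the members, where 4.06% of all tested genes were called lower and 2.14% higher. At an unadjusted level of 0.05, 17 members passed, all lower, as did 11.6% of all tested genes on the lower side. In 14 members (29.2%) every KHSRP siRNA array lay below every control array, which held for 9.72% of all tested genes. The changes ran from -0.75 (RRM1) to 0.26 (ORC4).

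**Figure D1:**
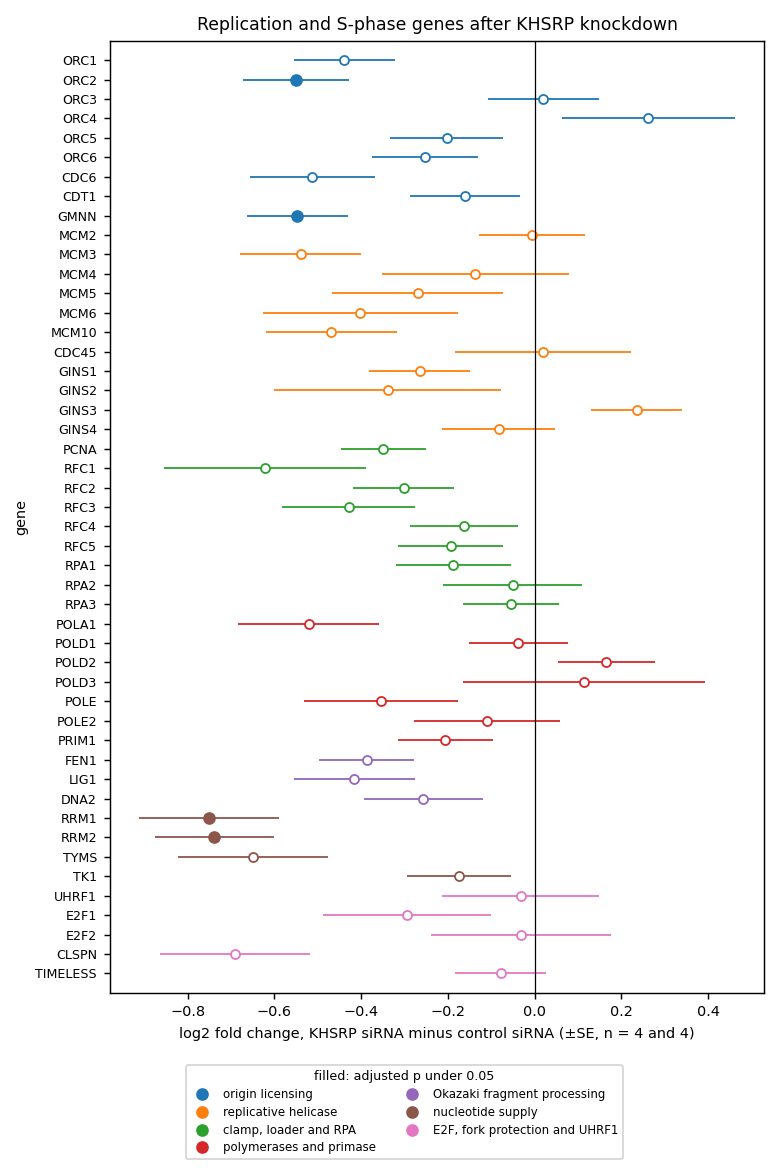
Each point is the log2 change of 1 member (x axis, KHSRP siRNA minus control siRNA, 4 arrays each) with its standard error, listed by role (y axis) and coloured by role. Filled points are the 4 members called by limma. Points lie left of 0 for 42 of 48 members, from -0.75 for RRM1 to 0.26 for ORC4.

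The 4 calls had limma adjusted p-values between 0.0193 and 0.0380, and no fit without 1 array called more than 2 members. No member was called (0 of 48) once control replicate 1, control replicate 2 or the first silenced replicate was left out. A single member (1) was called without control replicate 4 or without silenced replicate 2 or 4, and 2 were called without control replicate 3 or silenced replicate 3. These were ORC2 and RRM2 without the control array, and MCM3 and RRM2 without the silenced one. At its brighter probe the limma adjusted p of KHSRP rose too, from 5.95e-05 to between 0.000362 and 0.000905. How many of all tested genes these fits called is not given, so the drop cannot be read as particular to the members. The median change of the members moved less, between -0.26 and -0.20 over these 8 fits. Arrays lay on 2 slides, each with 2 replicates of both groups, and the median change of the members was -0.27 within the first slide and -0.18 within the second.

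Arrays of a group differed among themselves in a way that the other group mirrored. Every array's deviation from its own group mean was taken for each member. Over the 48 members, the deviations of control replicates 1, 2, 3 and 4 resembled those of KHSRP siRNA replicates 1, 2, 4 and 3, with correlations of 0.62, 0.74, 0.87 and 0.86. The other 12 pairings of a control with a silenced array gave between -0.78 and 0.40. Deviations sum to 0 within a group, so likeness in some pairings forces unlikeness in others. Over all 12125 tested genes the 4 alike pairs gave between 0.54 and 0.88, and the other 12 between -0.77 and 0.54. The likeness was thus not particular to the members. Over all tested genes control replicate 2 was about as like KHSRP siRNA replicate 3 as KHSRP siRNA replicate 2 (both 0.54). The 4 alike pairs carry the same number in the authors' series matrix, where replicates 3 and 4 of KHSRP siRNA hold each other's scanner values. Each of these pairs shares a slide. Which of the 2 numberings is right, and so which arrays belong together, is not settled by the files, and the pairs were taken for their likeness. Genes on 1 array share its labelling and scan, so these correlations are a description.

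With these pairs as a block in the fit, 23 members (47.9%) were called lower and 2 higher, where 17.1% of all tested genes were called lower and 15.9% higher. The block therefore moved the count of called members from 4 to 25. Since the pairs were picked for their likeness in these same data, that choice itself lowers the residual spread. The blocked p-values, here and below, may thus be too small and are no independent support. The 23 were ORC1, ORC2, CDC6 and GMNN in licensing, MCM3, MCM5, MCM6, MCM10, GINS1 and GINS2 in the helicase, PCNA, RFC1, RFC2 and RFC3, POLA1 and PRIM1, FEN1 and LIG1, RRM1, RRM2 and TYMS, and E2F1 and CLSPN. ORC4 and GINS3 were the 2 called higher. Blocked instead on the replicate numbers of the scanner files, which pair arrays that deviate in opposite ways in 2 of 4 cases, the fit called 0 members. Within the 4 pairs the median change of the members was -0.28, -0.34, -0.20 and -0.15. Of the members, 31 (64.6%) were lower in all 4 pairs, against 27.9% of all tested genes. Higher in all 4 were 3 members, against 3374 of the 12125 tested genes.

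**Figure D2:**
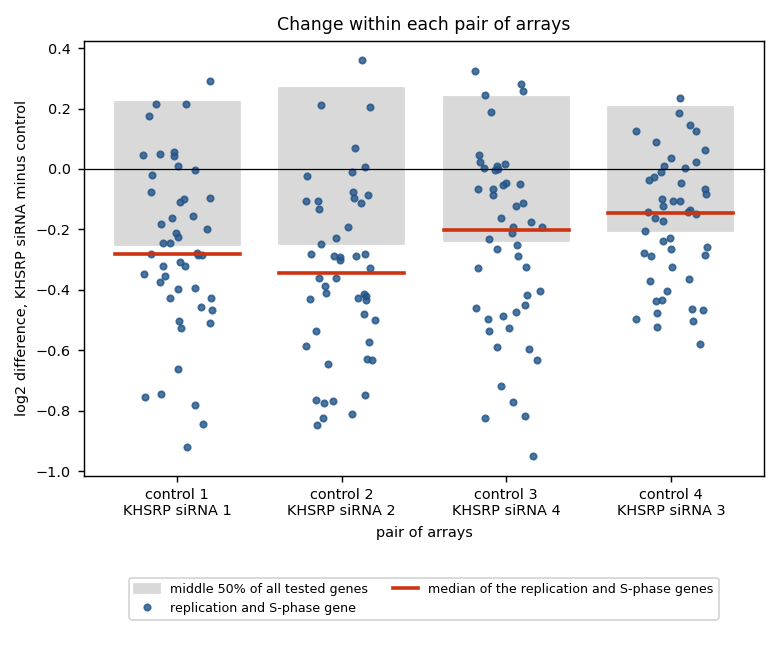
Log2 difference between the silenced and the control array of each pair (y axis) for the 48 members (points), with their median (red line), in the 4 pairs of arrays (x axis). The grey box spans the 25th to the 75th percentile of all tested genes. The member median lies below 0 in every pair, from -0.34 to -0.15.

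Nucleotide supply held the largest changes. RRM1 and RRM2 encode the large and the small subunit of ribonucleotide reductase, the enzyme that turns ribonucleotides into deoxynucleotides. The RRM1 level was 4.94, 4.68, 5.13 and 4.60 on control replicates 1 to 4, and 4.19, 3.83, 4.02 and 4.31 on KHSRP siRNA replicates 1 to 4. The highest silenced array thus lay below the lowest control array. RRM1 fell by 40.5% (log2 change -0.75, SE 0.16, adjusted p = 0.0334). RRM2 stood at 2.09, 2.27, 1.98 and 2.11 on the control arrays and at 1.17, 1.51, 1.62 and 1.21 on the silenced arrays, again without overlap. It fell by 40.1% (log2 change -0.74, SE 0.14, adjusted p = 0.0193). The 95% intervals, from -1.12 to -0.38 for RRM1 and from -1.05 to -0.42 for RRM2, covered much the same range. With the pair as a block the adjusted p was 0.00278 for RRM1 and 0.00424 for RRM2. Without each array in turn, the adjusted p ranged from 0.0450 to 0.106 for RRM1 and from 0.0250 to 0.0649 for RRM2. Thymidylate synthase (TYMS), which makes the thymidine nucleotide from its uridine form, had a change of -0.65 (SE 0.17) and groups that did not overlap, with an adjusted p of 0.0695, and of 0.00481 with the block. Thymidine kinase TK1, of the salvage route, had a change of -0.17 with a 95% interval from -0.45 to 0.10.

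In origin licensing 2 of 9 genes were called lower, where 4.06% of all tested genes were called lower. The measured changes ranged from -0.55 (ORC2) to 0.26 (ORC4). The pair as a block gave 4 calls lower and 1 higher, where 17.1% of all tested genes were called lower and 15.9% higher. Differences between subunits were not tested. ORC2, a subunit of the origin recognition complex, stood at 1.44, 1.65, 1.22 and 1.37 on control replicates 1 to 4 and at 0.93, 0.90, 0.90 and 0.75 on KHSRP siRNA replicates 1 to 4. No silenced array reached a control array, and ORC2 fell by 31.7% (log2 change -0.55, SE 0.12, adjusted p = 0.0380). This rests on probe A_23_P39616, the brighter of 2. At the other, A_33_P3381410, the change was -0.03 (SE 0.20), so that the 2 ORC2 probes disagreed, and with both averaged ORC2 was not called (adjusted p = 0.162). GMNN, the licensing inhibitor geminin, was at 4.22, 4.21, 4.47 and 4.27 on the control arrays and at 3.69, 3.58, 3.83 and 3.87 on the silenced arrays. Its groups did not overlap either, and it fell by 31.6% (log2 change -0.55, SE 0.12, adjusted p = 0.0329). Without each array in turn GMNN was never called (0 of 8 fits, adjusted p from 0.0561 to 0.0913), and ORC2 was called in 1 of 8 (0.0437 to 0.113). ORC1 had a change of -0.44 (adjusted p = 0.0671) and the MCM loader CDC6 one of -0.51 (adjusted p = 0.0824), both without overlap between the groups. CDT1, ORC5 and ORC6 had changes of -0.16, -0.20 and -0.25, none called. ORC3 was at 0.02, with a 95% interval from -0.27 to 0.31, and ORC4 at 0.26, with one from -0.19 to 0.72. At the dimmer probes of ORC4 and ORC5 the changes were -0.02 and -0.15.

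Helicase genes spread from MCM3 on the low side to GINS3 on the high side. MCM3, a subunit of the MCM ring, was at 5.40, 5.42, 5.31 and 5.48 on control replicates 1 to 4 and at 4.61, 4.84, 5.20 and 4.79 on KHSRP siRNA replicates 1 to 4. The groups did not overlap, and the change was -0.54 (SE 0.14), with an adjusted p of 0.0649 that reached 0.0312 without KHSRP siRNA replicate 3. The other ring subunits on the list had changes of -0.01 (MCM2), -0.14 (MCM4), -0.27 (MCM5) and -0.40 (MCM6). MCM7, a ring subunit that was not a member, had a change of -0.44 (SE 0.12, adjusted p = 0.0691) without overlap between the groups. Subunits of one ring thus had measured changes of different size, and the 95% interval for MCM2 ran from -0.28 to 0.27. The difference between subunits was not tested, and a second MCM5 probe had a change of -0.60. MCM10, which helps to activate the helicase, had a change of -0.47. CDC45 was at 0.02. In GINS, the 4-subunit partner of MCM, the changes were -0.27 (GINS1), -0.34 (GINS2), 0.24 (GINS3) and -0.08 (GINS4). None of the 11 helicase genes was called, and the lowest adjusted p was that of MCM3. With the pair as a block 6 were called lower, MCM3 among them (adjusted p = 0.0121), and GINS3 was called higher. Over all tested genes that fit called 17.1% lower and 15.9% higher. GINS3 was the single member whose silenced arrays all lay above the control arrays, which held for 786 of the 12125 tested genes.

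All 9 genes of the clamp, its loader and RPA had changes below 0. None was called without the pair as a block and 4 were called lower with it (PCNA, RFC1, RFC2 and RFC3). Of all tested genes, 17.1% were called lower with the block. RFC1, the large subunit of the loader that opens the PCNA ring, stood at 1.64, 1.83, 1.37 and 2.09 on control replicates 1 to 4 and at 0.89, 1.33, 1.56 and 0.65 on KHSRP siRNA replicates 1 to 4. Here the groups overlapped, since KHSRP siRNA replicate 3 lay above control replicate 3. The change was -0.62 (SE 0.23, adjusted p = 0.179, and 0.00448 with the block), the largest of the role, with a residual SD of 0.36. PCNA, the clamp, was the most even member, with a residual SD of 0.07. Its 3 probes had changes of -0.35, -0.28 and -0.18, and at the brightest the adjusted p was 0.0818. RFC2, RFC3, RFC4 and RFC5 had changes of -0.30, -0.43, -0.16 and -0.19, though at the second RFC3 probe it was -0.04. The RPA subunits, which coat single-stranded DNA, had changes of -0.19 (RPA1), -0.05 (RPA2) and -0.05 (RPA3), and the second RPA2 probe one of -0.06.

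Among polymerases, the largest change was that of POLA1, the catalytic subunit of the polymerase that extends primers. Its level was 2.54, 2.35, 2.82 and 2.33 on control replicates 1 to 4 and 2.12, 1.72, 1.89 and 2.23 on KHSRP siRNA replicates 1 to 4. The groups were separate by a small margin, and the change of -0.52 (SE 0.16) was not called (adjusted p = 0.112), although it was with the pair as a block (adjusted p = 0.00587). The primase subunit PRIM1 had a change of -0.21 and was the other of 2 genes of this role called with the block. Among all tested genes 17.1% were called lower in that fit. POLE, the catalytic subunit of the leading-strand polymerase, had one of -0.35 at its brighter probe and 0.09 at its dimmer one, and its partner POLE2 was at -0.11. The lagging-strand polymerase genes were near 0 or above it, at -0.04 (POLD1), 0.17 (POLD2) and 0.11 (POLD3). For POLD1 the 95% interval ran from -0.30 to 0.22.

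Okazaki fragments are trimmed by the nucleases FEN1 and DNA2 and joined by the ligase LIG1. LIG1 was at 3.27, 3.23, 3.10 and 3.54 on control replicates 1 to 4 and at 2.77, 2.80, 3.13 and 2.78 on KHSRP siRNA replicates 1 to 4. KHSRP siRNA replicate 3 reached the range of the controls, and the change was -0.42 (SE 0.14, adjusted p = 0.135). FEN1 had a change of -0.39 (SE 0.11, adjusted p = 0.0842) without overlap, and DNA2 one of -0.26. None of the 3 was called, whereas with the pair as a block LIG1 and FEN1 were called lower (adjusted p = 0.00831 and 0.00836). So were 17.1% of all tested genes.

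CLSPN encodes claspin, which links stalled forks to the checkpoint kinase. It stood at -0.56, -0.70, -0.15 and -0.39 on control replicates 1 to 4 and at -1.22, -1.47, -0.89 and -0.98 on KHSRP siRNA replicates 1 to 4. The groups did not overlap, and the change of -0.69 (SE 0.17) missed the threshold by little (adjusted p = 0.0566). Its fork partner TIMELESS was at -0.08, with a 95% interval from -0.32 to 0.16. The transcription factors E2F1 and E2F2 had changes of -0.29 (SE 0.19) and -0.03 (SE 0.21), and UHRF1, which carries DNA methylation over to the new strand, one of -0.03 (SE 0.18) at its brighter probe and -0.25 at its dimmer one. None of these 5 genes was called. The blocked fit called CLSPN (adjusted p = 0.00393) and E2F1 (adjusted p = 0.0340) lower, beside 17.1% of all tested genes.

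**Figure D3:**
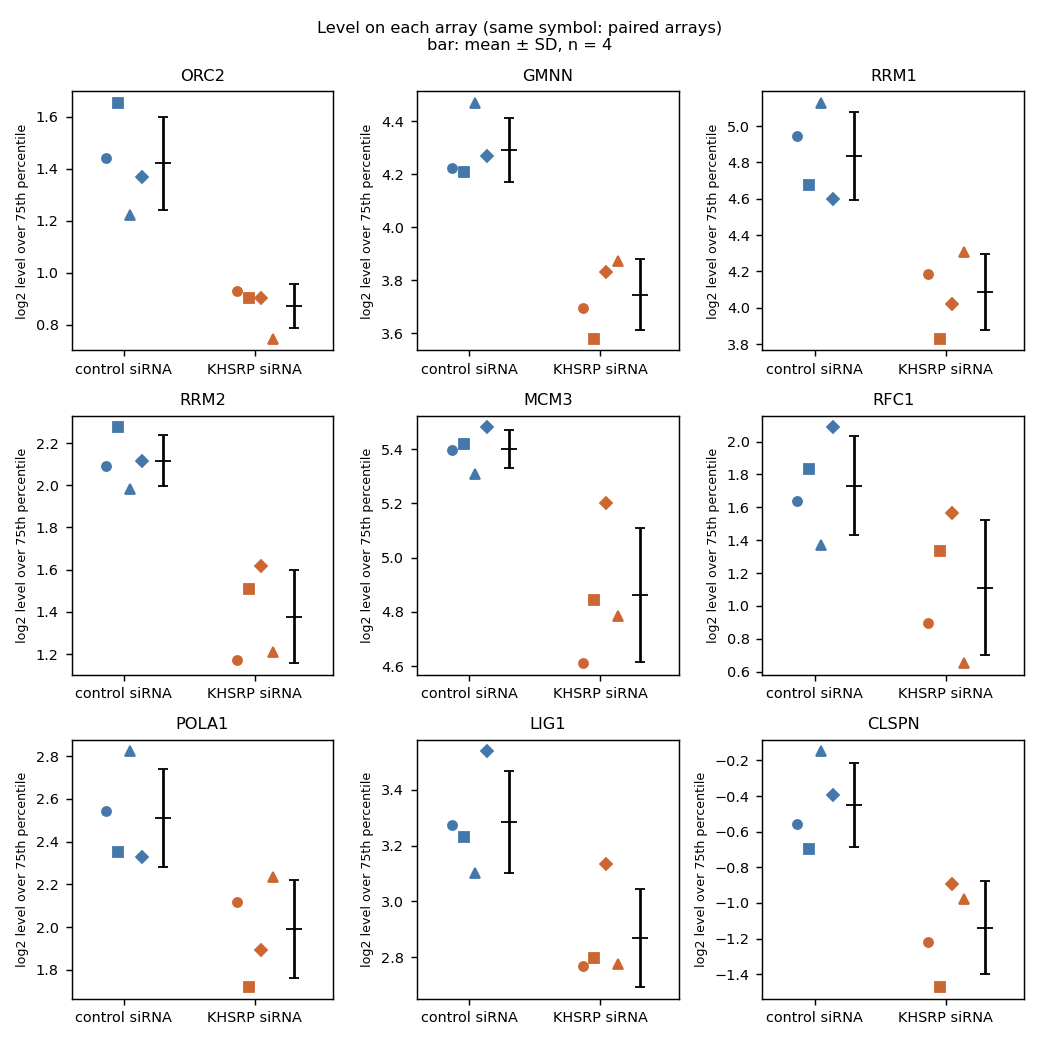
Level of 9 members on each of the 8 arrays (y axis, log2 over the array's 75th percentile), with control siRNA in blue and KHSRP siRNA in orange (x axis) and the mean with SD (n = 4) beside each group. The same symbol marks a control array and the silenced array paired with it. The groups are separate in 7 panels and overlap for RFC1 and LIG1.

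Members differed widely in how much they varied within a group. The residual SD ran from 0.07 (PCNA) to 0.45 (POLD3), with a median of 0.17, against 0.25 for all tested genes. With the pair as a block the median residual SD was 0.09 for the members and 0.11 for all tested genes. GINS2 deviated by -0.18, 0.27, -0.39 and 0.30 on control replicates 1 to 4 and by -0.27, 0.20, 0.57 and -0.50 on KHSRP siRNA replicates 1 to 4. POLD3 went the other way on the last pairs, with -0.10, -0.37, 0.56 and -0.10 on the control arrays and 0.01, -0.55, -0.09 and 0.64 on the silenced arrays. So GINS2 was low, and POLD3 high, on control replicate 3 and KHSRP siRNA replicate 4. On control replicates 1 and 3 and KHSRP siRNA replicates 1 and 4, 11 members lay below their group mean while lying above it on the other 4 arrays: ORC4, ORC5, MCM5, MCM6, GINS2, RFC1, RPA1, RPA2, POLE2, PRIM1 and TYMS. The reverse held for MCM4, RPA3, POLA1, RRM1 and E2F1. One of these sign patterns was met by 33.3% of the members and by 34.9% of all tested genes, so that the members did not stand out in this.

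The same arrays differed in squamous markers. Of the 10 markers, 9 lay above their group mean on control replicates 1 and 3 and KHSRP siRNA replicates 1 and 4 and below it on the others. Of the 12125 tested genes, 1730 had this pattern and 2507 its reverse. KRT5, a keratin of basal squamous cells, was at 5.84, 4.30, 5.84 and 3.11 on control replicates 1 to 4 and at 5.92, 4.46, 2.92 and 5.98 on KHSRP siRNA replicates 1 to 4. The linear levels of the 10 markers, summed per array, ranged from 211 to 613 in the control group and from 245 to 709 in the silenced group, where 1 is the signal at the 75th percentile. Both groups thus held arrays of high and of low marker level in equal number, and the median change of the markers was 0.15 with 0 called. With the pair as a block DSG3 was called lower (log2 change -0.74) and CDH1, DSC3 and PERP higher (0.55, 0.48 and 0.46), so the marker count changed with the block too. That fit called 17.1% of all tested genes lower and 15.9% higher. The part of this difference in the members' spread was not tested.

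**Figure D4:**
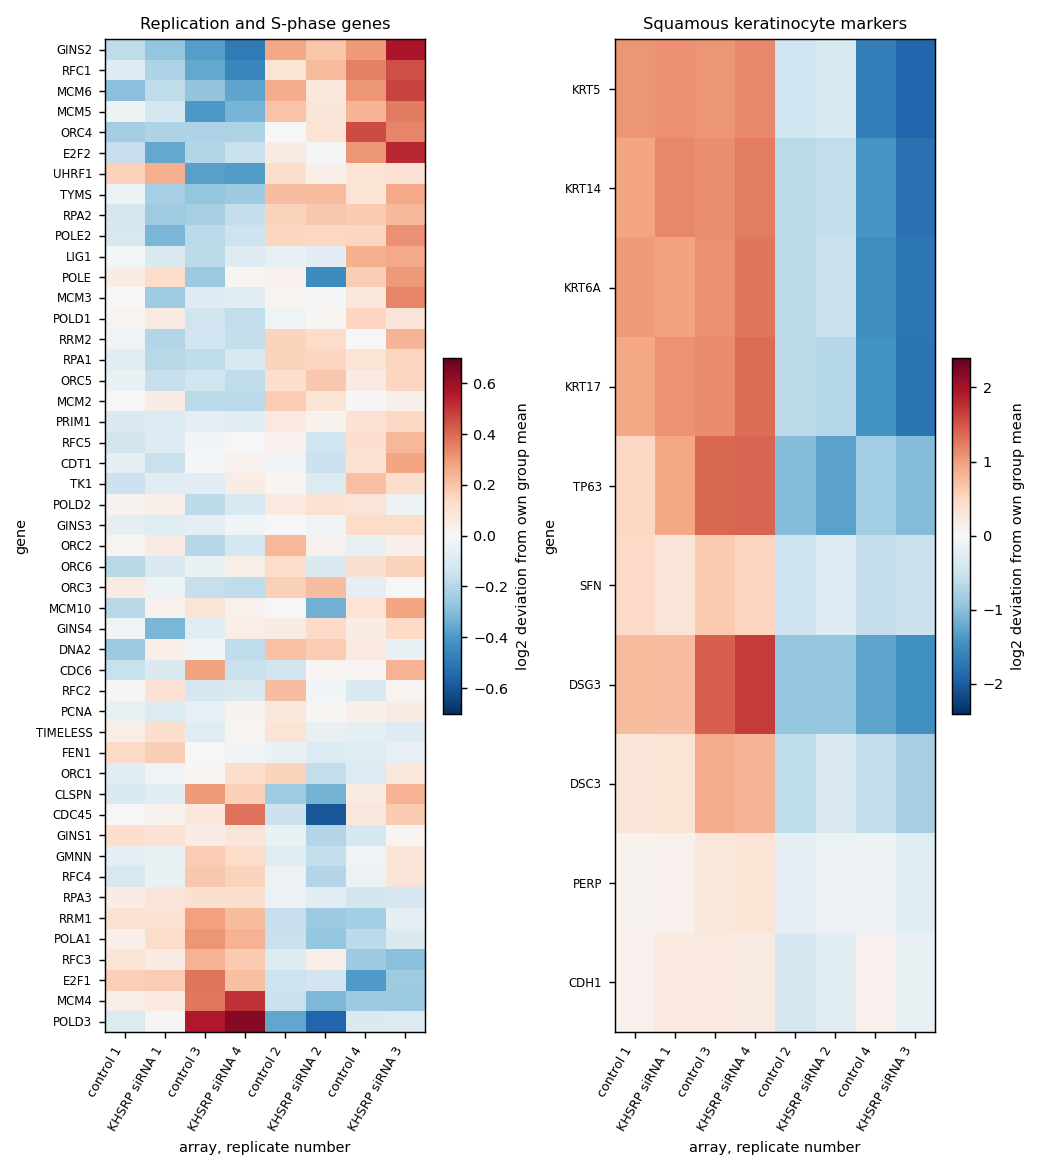
Deviation of each gene's log2 level (colour) from the mean of its own group on the 8 arrays (x axis, paired arrays side by side), for the 48 members at left and 10 squamous markers at right (y axes), with separate colour scales. Members are ordered from low to high on control replicate 3 and KHSRP siRNA replicate 4 relative to control replicate 4 and KHSRP siRNA replicate 3, from GINS2 to POLD3. Paired arrays look alike, and 9 of 10 squamous markers are above their mean on the 4 left-hand arrays.

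Since E2F sites are a known shared feature of replication promoters, RefSeq promoter windows (GRCh38.p14, 250 bases before to 50 after a start site) were searched for the words TTTCCCGC, TTTGGCGC, TTTGCCGC and TTTCGCGC on both strands. These are the E2F consensus with its degenerate bases spelled out, and words on opposite strands can overlap. A window was given for 42 of the 49 members, and 22 of them (52.4%) held at least 1 word at some start site. The share was 3.99% over 27305 genes with a window and 6.79% over the 9716 tested genes with one. The plain word CCAAT, on either strand, was in the windows of 64.3% of members and 43.6% of tested genes. Of the members called, only GMNN had an E2F-type word. Tested members with a word had a median change of -0.35 (21 genes) and those without one -0.20 (20 genes), a description without a test. The split by CCAAT was at least as wide, with -0.35 in 27 tested members that hold it and -0.16 in 14 that do not. Of the 25 mitosis genes with a window, 2 held an E2F-type word and 20 held CCAAT. A match is a run of letters and not a measured binding site. Only these exact words were searched, so a window without one may still hold an E2F site.

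The windows of the 4 called members are shown first, and those of MCM3, E2F1 and PCNA after them as examples that carry the words. Each is written 5′ to 3′ on the strand of the gene, and capitals mark an E2F-type word or its reverse complement. For GMNN and PCNA, with 2 start sites each, the window with a word is given. RRM2 has 2 start sites, and the first listed is given.
RRM1, chr11:4094435-4094734, plus strand: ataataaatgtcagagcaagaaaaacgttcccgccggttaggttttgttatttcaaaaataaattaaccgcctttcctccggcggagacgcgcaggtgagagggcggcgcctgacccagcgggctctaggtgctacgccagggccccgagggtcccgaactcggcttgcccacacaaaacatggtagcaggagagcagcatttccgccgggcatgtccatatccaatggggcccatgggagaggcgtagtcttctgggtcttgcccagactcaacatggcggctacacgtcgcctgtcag
RRM2, chr2:10122489-10122788, plus strand: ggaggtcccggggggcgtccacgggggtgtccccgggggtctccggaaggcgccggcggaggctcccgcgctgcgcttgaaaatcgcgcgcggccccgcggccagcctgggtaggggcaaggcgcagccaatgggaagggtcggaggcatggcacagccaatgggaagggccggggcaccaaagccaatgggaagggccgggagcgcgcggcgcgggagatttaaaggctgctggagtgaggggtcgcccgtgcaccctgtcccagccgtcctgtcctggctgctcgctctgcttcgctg
GMNN, chr6:24775163-24775462, plus strand: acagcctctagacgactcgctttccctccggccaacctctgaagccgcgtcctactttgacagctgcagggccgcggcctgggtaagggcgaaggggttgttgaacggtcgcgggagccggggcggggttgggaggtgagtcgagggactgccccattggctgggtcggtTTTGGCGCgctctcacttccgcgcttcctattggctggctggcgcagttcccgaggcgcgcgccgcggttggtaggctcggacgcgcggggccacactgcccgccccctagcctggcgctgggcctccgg
ORC2, chr2:200963611-200963910, minus strand: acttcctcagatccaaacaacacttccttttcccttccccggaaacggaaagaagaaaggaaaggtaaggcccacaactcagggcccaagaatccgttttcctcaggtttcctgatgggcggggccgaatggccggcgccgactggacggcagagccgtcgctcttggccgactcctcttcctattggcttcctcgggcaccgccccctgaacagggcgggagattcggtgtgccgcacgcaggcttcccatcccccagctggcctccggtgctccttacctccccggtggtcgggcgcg
MCM3, chr6:52284693-52284992, minus strand: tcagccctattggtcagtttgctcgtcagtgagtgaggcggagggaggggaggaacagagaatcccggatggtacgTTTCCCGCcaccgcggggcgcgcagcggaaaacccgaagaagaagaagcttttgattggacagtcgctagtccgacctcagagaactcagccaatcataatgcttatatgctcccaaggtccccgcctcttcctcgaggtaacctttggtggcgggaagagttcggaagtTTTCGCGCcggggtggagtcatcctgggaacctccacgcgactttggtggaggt
E2F1, chr20:33686336-33686635, minus strand: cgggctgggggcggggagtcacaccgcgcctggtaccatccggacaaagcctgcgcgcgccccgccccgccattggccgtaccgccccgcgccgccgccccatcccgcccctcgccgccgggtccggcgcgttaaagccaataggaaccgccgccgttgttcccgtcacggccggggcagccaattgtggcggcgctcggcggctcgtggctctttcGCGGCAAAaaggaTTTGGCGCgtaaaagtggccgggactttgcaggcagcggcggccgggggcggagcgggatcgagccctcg
PCNA, chr20:5126573-5126872, minus strand: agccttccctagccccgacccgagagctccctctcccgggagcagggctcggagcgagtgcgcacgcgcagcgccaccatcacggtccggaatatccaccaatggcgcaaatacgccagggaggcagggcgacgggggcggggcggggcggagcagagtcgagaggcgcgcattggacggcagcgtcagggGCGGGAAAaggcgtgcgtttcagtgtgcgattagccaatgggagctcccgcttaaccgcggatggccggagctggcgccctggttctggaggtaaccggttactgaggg

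The RRM1, RRM2 and ORC2 windows hold no capitals, whereas GMNN and PCNA hold 1 word each and MCM3 and E2F1 hold 2 each. The GMNN word begins 80 bases before the start site. In MCM3 the words begin 174 and 4 bases before it, and in PCNA 59 bases before it. RRM2 holds CCAAT 3 times, and RRM1 and ORC2 hold it once each. Genes with and without a word were thus both among the 4 called members.

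**Figure D5:**
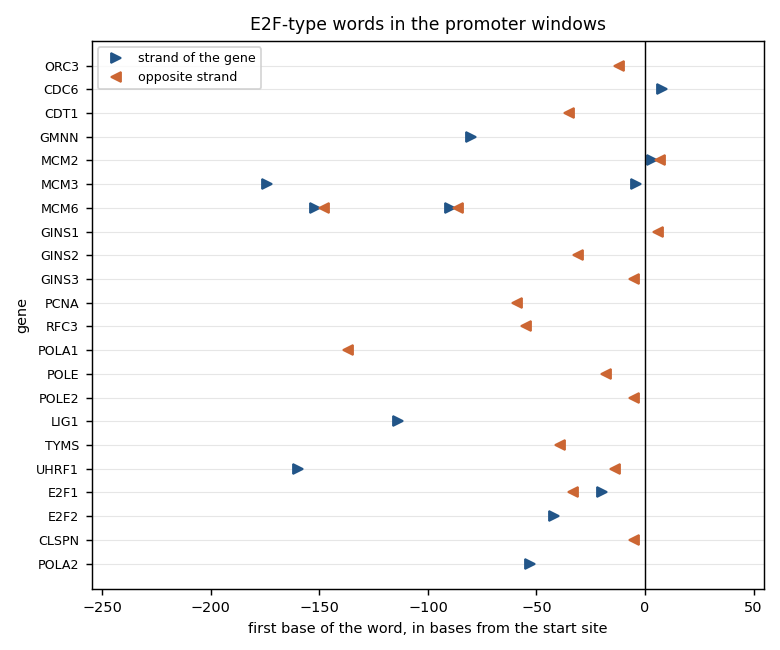
First base of each E2F-type word (x axis, bases from the start site, which is the line at 0) in the windows of the 22 members that hold 1 (y axis), with blue marks for the gene's own strand and orange for the opposite strand. POLA2, which had no probe, is in the last line. Words lie between 174 bases before and 8 bases after a start site.

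Other groups of genes were set beside the members, each counted in the same fit. Of 38 other S-phase genes, 31 had changes below 0, with a median of -0.24, and 3 were called, all lower, where 4.06% of all tested genes were called lower. E2F8, a repressor among the E2F factors, was at -0.54, -0.32, -0.63 and -0.39 on the control arrays and at -2.37, -2.26, -1.90 and -2.83 on the silenced arrays (log2 change -1.87, SE 0.19, adjusted p = 0.00178). On KHSRP siRNA replicate 4, the lowest array, the E2F8 probe was not well above background, so that its size there is uncertain. CCNE1, the cyclin that drives entry into S phase, fell by 1.19 on the log2 scale (SE 0.10, adjusted p = 0.000718). CDCA7 fell by 0.85 (SE 0.19, adjusted p = 0.0385). E2F8 and CCNE1 were called in each of the 8 fits that left out an array, and CDCA7 in 1 of them. In the blocked fit 15 of the 38 were called lower and 1 higher, against 17.1% and 15.9% of all tested genes.

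Of the 8 E2F partners and pocket proteins, 4 had changes below 0 and 4 above, and RB1 alone was called. Of all tested genes, 4.06% were called lower and 2.14% higher in this fit. RB1, the retinoblastoma protein that binds E2F1, was at 1.83, 2.24, 1.47 and 2.48 on control replicates 1 to 4 and at 0.45, 0.81, 1.34 and 0.36 on KHSRP siRNA replicates 1 to 4. It fell by 1.27 (SE 0.28, adjusted p = 0.0364), and was called in 2 of the 8 fits that left out an array. In the blocked fit 1 of the 8 genes was called lower and 3 higher, beside 17.1% and 15.9% of all tested genes. Mitosis genes had a lower median change than the replication genes. All 29 tested of 30 had changes below 0, with a median of -0.76, where 49.1% of all tested genes were below 0. Of these 29, 19 were called lower, against 4.06% of all tested genes. That number dropped to 12 without control replicate 1. CCNA2, which acts in both S phase and mitosis, was at 2.57, 2.49, 2.73 and 2.35 on the control arrays and at 0.39, 0.75, 0.88 and 0.37 on the silenced arrays (log2 change -1.94, SE 0.16, adjusted p = 0.000668). The kinases NEK2 and BUB1 had changes of -1.22 (SE 0.13, adjusted p = 0.00200) and -1.14 (SE 0.11, adjusted p = 0.00110). The median change of the mitosis genes was -0.83 within the first slide and -0.72 within the second, where that of the members was -0.27 and -0.18. The difference between the lists was not tested.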

How the data were processed

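Total RNA was Cy3-labelled and hybridised to 1 Agilent array per sample. Per the file headers, Agilent Feature Extraction 11.5.1.1 gave background-subtracted, detrended spot signals, so the deposited scanner values are linear intensities (the submitters' processing notes name version 12.6). The authors also deposited a series matrix of log2 values. Control and outlier spots were left out, log2 signals were averaged per probe, and the 75th percentile of each array was subtracted. Probes with at least 0.5 of their spots well above background on all arrays of 1 group were tested (18761 of 42405). RefSeq accessions gave a symbol for 64.2% of probes. The tested probe with the highest mean stood for a gene. The 2 groups entered a linear model in limma 3.58.1 (R 4.3.3; lmFit, then eBayes), two-sided, and p-values were adjusted by Benjamini-Hochberg across the tested probes; "called" means an adjusted p under 0.05. Other steps used Python 3.11.15. The fit was tested on simulated data.

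Pairing was checked on deviations from group means over 18760 probes. By the scanner files' numbers the correlations were 0.52, 0.43, -0.67 and -0.64. By the series matrix, whose columns for KHSRP siRNA replicates 3 and 4 hold each other's scanner values, they were 0.52, 0.43, 0.83 and 0.84, so arrays were paired by its numbers in the blocked fit. The files do not settle which numbering is right, so the unblocked fit is the main one and both blocks are given. The pairing was chosen on the tested data, so its blocked p-values may be too small. Replicate numbers elsewhere are those of the scanner files.

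The members and lists were chosen with earlier results of these data known. Values on every array are given for called members and for the member with the largest change in each role. Of each other list the called genes with the largest changes are named, at most 3. KRT5 was added after its values were seen, and so was MCM7, as a further subunit of the MCM ring. Alternatives were quantile, median and detected-probe scaling, normexp (offset 50, on median spot signal), the series matrix, 2 other filters, slide and replicate blocks, array weights, robust eBayes with a trend, averaged probes, the methods' t-test, and leaving out each array. The array number limits the precision.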

Additional observations from a re-analysis of the deposited data

Results flagged for a closer look

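In 98 groups of 4 arrays (the 48 members and KHSRP, each in both groups), 3 had 1 array far from the other 3, by the gap to its neighbour as a share of the group's range. About 1 group in 20 is marked so by chance. LIG1 was high on KHSRP siRNA replicate 3, at 3.13 against 2.80 on the next array, a gap of 0.924 of the range. UHRF1 was low on control replicate 3, at 2.45 against 2.92, with a gap of 0.871. ORC2 was low on KHSRP siRNA replicate 4, at 0.75 against 0.90, with a gap of 0.846.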

How the results depend on the processing

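Over 22 alternatives KHSRP stayed called, with a change from -3.46 to -3.27 when each array was left out and -3.02 with its probes averaged, and the median change of the members stayed below 0 (-0.33 to -0.19, -0.26 to -0.20 without each array). The residual spread moved within its range under quantile normalization. The count of called members was 7 with array weights and 7 with normexp, 0 with no filter on dim probes, 0 with the replicate block by scanner numbers, 25 with the replicate block by series matrix numbers, and 0 to 2 without each array. The series matrix block raised other S-phase calls from 3 to 16 (2 to 3 without each array) and those among E2F partners and pocket proteins from 1 to 4. The latter count was 0 with the methods' t-test, with no filter, with the scanner-number block, with slide as a block, and 0 to 1 without each array. Calls among mitosis genes were 8 with no filter, 7 with the scanner-number block and 12 to 17 without each array. Apart from the main fit, the share of all tested genes called is given only for the series matrix block. The other moves thus cannot be read as particular to a list. The cause of these moves was not tested. The block changed no call of KHSRP.

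Members near 0 changed sign. With median scaling ORC3 was at -0.054 and CDC45 at -0.054, and with array weights CDC45 was at -0.049. MCM2 was at 0.014 with detected-probe scaling and at 0.022 with quantile normalization, and with normexp RPA3 was at 0.0021 and UHRF1 at 0.012. Without each array the range was -0.052 to 0.080 for ORC3, -0.069 to 0.056 for MCM2, -0.11 to 0.22 for CDC45, -0.13 to 0.023 for GINS4, -0.13 to 0.032 for RPA2, -0.085 to 0.020 for POLD1, -0.099 to 0.30 for POLD3, -0.16 to 0.099 for UHRF1 and -0.21 to 0.087 for E2F2. With 4 arrays a group, 13 of the 17 members below an unadjusted level of 0.05 were not called.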
